A study of Rattus norvegicus with 16 samples.

Results

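Heat shock factor 1 and 9 of the chaperones and co-chaperones that its target programme is known for were followed through the ageing rat liver. The 10 genes are Hsf1, Hspa8, Hspa1b, Dnajb1, Hsph1, Hsp90aa1, Chordc1, Hspb1, Hspb8 and Hspd1. They were found by gene name among the probes of the array, which gave 22 probes of 41012 in all, for 10 genes of 35119. After a filter on dim probes, 21 of the 22 probes and all 10 genes remained, among 25697 probes and 21488 genes. The second probe of Hspa1b was the one removed, since it lay well above background on 0 of 16 arrays.

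Messenger RNA had been measured in the liver of male Lewis rats aged 3, 9, 12, 18 and 24 months on 16 one-colour Agilent arrays, with 3 arrays at each age up to 18 months and 4 at 24 months. Lewis is an inbred laboratory rat strain. The animals had no treatment and no engineered allele, and all were kept specific pathogen-free with a 12-hour light and dark cycle and unrestricted food and water. Livers were frozen in liquid nitrogen. The hour of collection is not given in the sources used here, nor is it said whether each array stands for a separate animal, so p-values measure the spread between these samples, which may be technical in part.

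Cells answer unfolded protein by releasing HSF1, a transcription factor that free chaperones otherwise hold inactive. Active HSF1 assembles into a multimer and binds heat shock elements, which are runs of the triplet GAA in alternating orientation, and switches on chaperone genes. HSP70 proteins bind exposed stretches of unfolded client proteins with the help of J-domain proteins, which bring clients and start ATP hydrolysis, and of nucleotide exchange factors. HSP90 completes the folding of kinases and steroid receptors, small heat shock proteins hold unfolded protein in a soluble state, and HSP60 folds proteins inside mitochondria, so Hspd1 is not a cytosolic chaperone. In liver, chaperone genes also follow the daily rhythm of feeding and body temperature.

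RefSeq promoter windows on the build GRCr8 were matched for 7 of the 10 genes, Hspa8, Dnajb1, Hspb1, Hspb8, Hsph1, Hspd1 and Chordc1. They were searched for heat shock element letters because the genes share HSF1 as a known regulator, and this search used no array value. The dyad searched was GAANNTTC or TTCNNGAA, and the 3-unit motif was a dyad followed, after a gap of any 2 bases, by a further triplet in the opposite orientation. Both strands are covered, and a 3-unit motif holds overlapping dyads. In the 250 bases before the annotated start, 6 of the 7 genes had a dyad, against 13.5% of 33465 promoters, and 3 of the 7 had a 3-unit motif, against 0.663%. Over the whole window of 300 bases, which runs 50 bases past the start, the dyad was in 7 of the 7 and in 15.9% of all, and the 3-unit motif was in 4 of the 7 and in 0.798% of all. A match is a run of letters and was not tested as a binding site.

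The 250 bases before the start are shown, 5′ to 3′ on the strand of the gene, for the 3 genes with a 3-unit motif there and for Hspb8 and Dnajb1, which had a dyad and whose signals differed with age. Capitals mark the motif letters. The stretches lie at chr8:50080264-50080513 (plus strand, Hspa8), chr12:10427118-10427367 (plus strand, Hsph1), chr9:64084038-64084287 (minus strand, Hspd1), chr12:45837058-45837307 (plus strand, Hspb8) and chr19:41431142-41431391 (minus strand, Dnajb1).
Hspa8: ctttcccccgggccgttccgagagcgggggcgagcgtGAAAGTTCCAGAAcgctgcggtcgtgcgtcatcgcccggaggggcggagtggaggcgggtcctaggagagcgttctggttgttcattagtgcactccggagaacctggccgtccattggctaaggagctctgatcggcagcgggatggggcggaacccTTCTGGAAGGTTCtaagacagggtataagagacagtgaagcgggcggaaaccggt
Hsph1: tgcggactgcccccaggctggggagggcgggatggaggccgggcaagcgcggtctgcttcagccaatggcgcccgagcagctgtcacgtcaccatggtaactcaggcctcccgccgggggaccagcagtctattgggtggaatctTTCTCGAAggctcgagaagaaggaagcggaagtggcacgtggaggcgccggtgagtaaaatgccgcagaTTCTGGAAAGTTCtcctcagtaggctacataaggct
Hspd1: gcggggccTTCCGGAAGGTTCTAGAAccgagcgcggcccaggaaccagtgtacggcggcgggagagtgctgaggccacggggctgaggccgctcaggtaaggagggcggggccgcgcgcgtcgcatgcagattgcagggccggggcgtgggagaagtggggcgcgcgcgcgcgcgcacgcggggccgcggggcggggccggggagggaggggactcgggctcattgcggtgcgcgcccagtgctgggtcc
Hspb8: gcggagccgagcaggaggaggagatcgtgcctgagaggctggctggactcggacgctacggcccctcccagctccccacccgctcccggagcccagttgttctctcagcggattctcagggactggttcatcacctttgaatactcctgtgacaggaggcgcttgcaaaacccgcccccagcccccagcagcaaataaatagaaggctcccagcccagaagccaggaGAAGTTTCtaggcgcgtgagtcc
Dnajb1: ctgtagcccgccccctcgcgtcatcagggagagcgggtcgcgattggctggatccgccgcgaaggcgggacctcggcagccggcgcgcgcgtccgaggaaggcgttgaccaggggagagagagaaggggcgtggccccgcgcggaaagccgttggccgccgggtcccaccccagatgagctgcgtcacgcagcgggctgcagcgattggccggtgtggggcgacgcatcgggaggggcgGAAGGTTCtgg

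Hspa8 held 3-unit motifs at −213 to −201 and at −55 to −43, the second a little upstream of the start. In Hsph1 the 3-unit motif lay at −36 to −24, with a separate dyad at −105 to −98. The motifs of Hspd1 overlapped in 1 run at −242 to −225. Chordc1 had none before its start, but 23 bases at +11 to +33 (chr8:23650831-23650853, plus strand) joined 3 overlapping 3-unit motifs, shown here because they are the longest run found among the 7 genes.
Chordc1: GAACGTTCGGGAAGATTCCTGAA

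**Figure D1:**
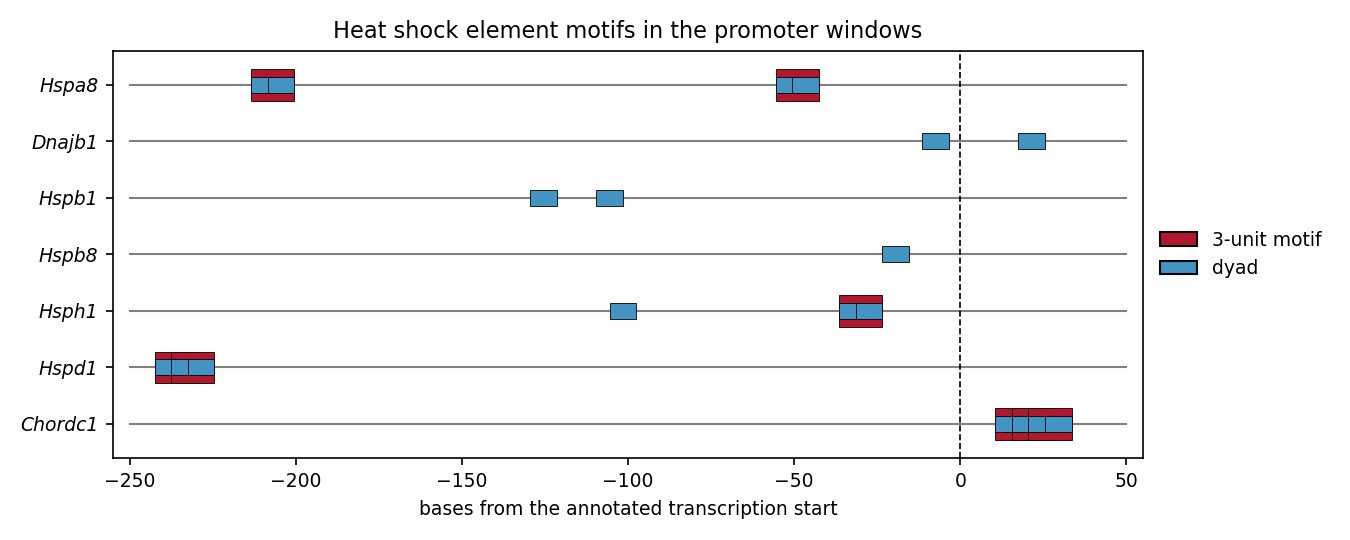
Positions of heat shock element letters in the promoter windows of 7 genes, in bases from the annotated transcription start, with 3-unit motifs and dyads in different colours. The 3-unit motifs of Hspa8, Hsph1 and Hspd1 lie before the start, and those of Chordc1 lie at +11 to +33.

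Signal in what follows is on the log2 scale, with the 75th percentile of the same array subtracted, and is given per array or as mean ± SD. Differences are older minus younger age on the log2 scale, from limma fitted across all 21488 genes, and a gene is called where the Benjamini-Hochberg adjusted p lies under 0.05. Levels of different genes were not compared. Probes were ranked by brightness only to choose 1 for each gene. Marker signals are summed across genes below, and bright probes weigh most in those sums. Each array had 52.49% to 65.19% of its probes well above background and no saturated spot, and precision is limited by how few arrays there are. The arrays least like the others of their age, by mean correlation across genes, were replicate 2 at 12 months (0.965) and replicates 3 and 4 at 24 months (0.974 and 0.975). These 3 were picked after their values were seen and with no set limit, and the next value, at 12 months, was 0.976. The arrays of 3 months lay on 1 slide, those of 18 months on another that held no other age, and those of 24 months on 3 more, so slide and age cannot be told apart at 24 or 18 against 3 months. Replicate 2 at 9 months shared the slide of the 3-month arrays, and replicate 2 at 12 months that of the remaining 9-month arrays. The 24-month arrays were scanned on another day than those of 3 months, which cannot be told apart from age either. The 18-month arrays were scanned in a second session that held no array of 3, 9 or 24 months. Only 12 months had arrays in both sessions, with replicate 2 in the first and replicates 3 and 4 in the second.

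A difference between any of the ages was called by the F test for 6 of the 10 genes, against 37.4% of all genes tested. Those were Hspa8 (adjusted p = 0.00653), Chordc1 (0.00909), Hspb8 (0.0182), Hsf1 (0.0229), Hsp90aa1 (0.0421) and Dnajb1 (0.047). Hsph1 (0.0786), Hspb1 (0.117), Hspa1b (0.122) and Hspd1 (0.288) did not pass. Dnajb1 lost this call when any 1 of 13 arrays was left out, and kept it without replicate 2 at 12 months, replicate 1 at 18 months or replicate 3 at 24 months. Hsp90aa1 lost it in 11 of 16 such fits and kept it without replicate 3 at 9 months, replicate 2 at 12 months, replicate 1 at 18 months or replicates 3 or 4 at 24 months. Hspb8 lost it without any 1 of the 3-month arrays (adjusted p 0.0556 to 0.0643), and Hsf1 without any 1 of the 18-month arrays or replicate 2 at 24 months (0.0525 to 0.0603). Hspa8 and Chordc1 kept it without any single array. With slide as a random block, 0 of the 10 genes were called by this test, where 22.5% of all genes were. After normexp background correction the count was 0 as well, where 7.53% of all genes were called.

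**Figure D2:**
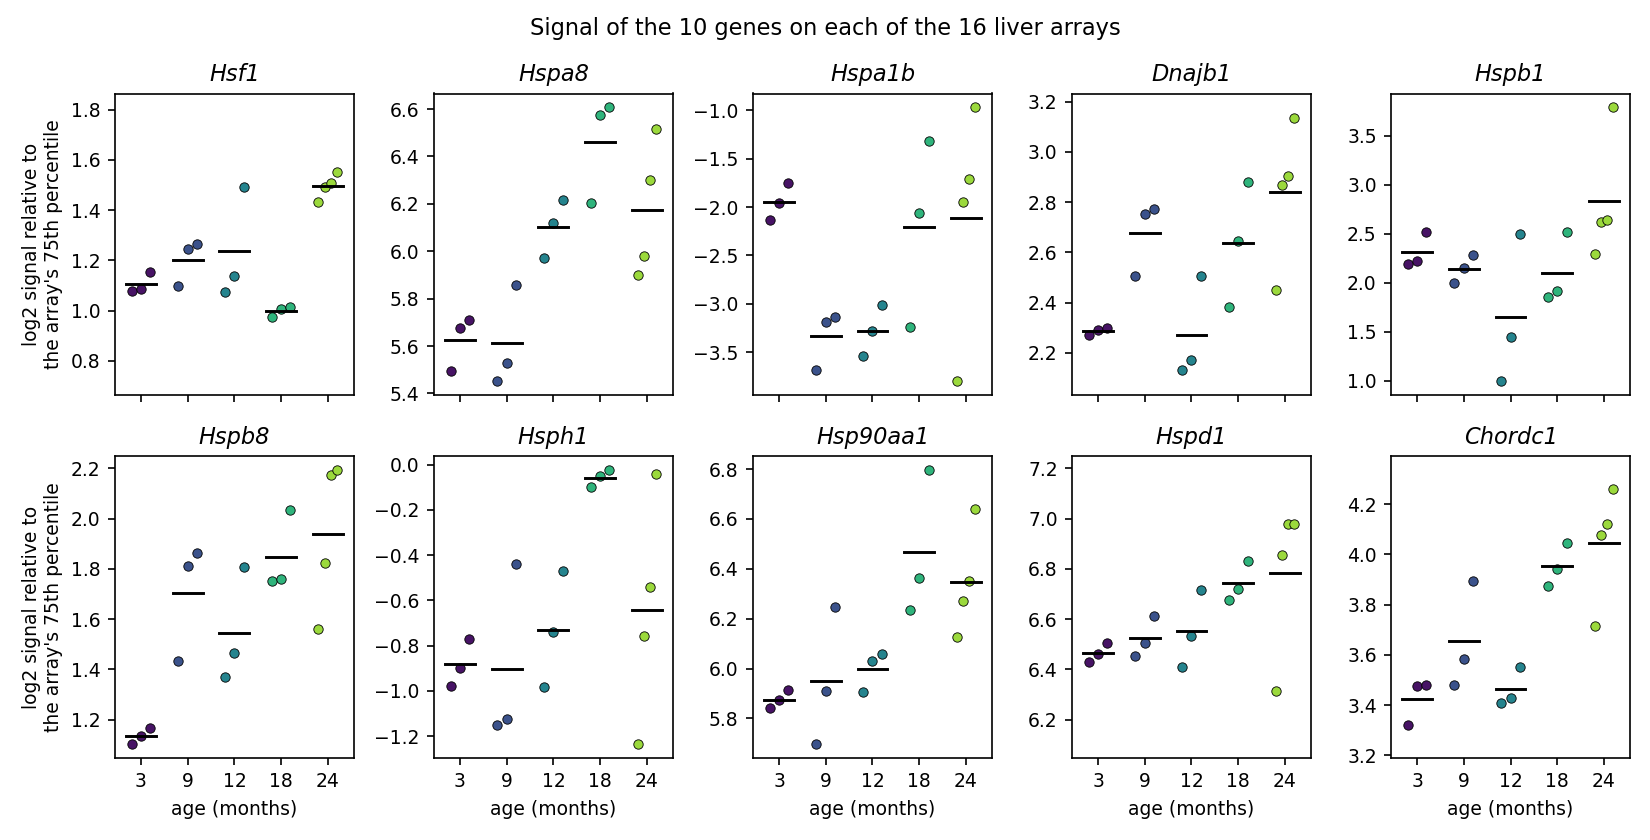
Log2 signal of the 10 genes relative to the 75th percentile of each array (vertical axes) against age in months, 1 point per array with the mean of each age. Hsf1 lies between 1.43 and 1.55 on the 4 arrays of 24 months, and Hspa8 and Hsph1 have their highest means at 18 months.

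Hsf1 encodes the transcription factor of the programme. Its signal was 1.08, 1.09 and 1.15 at 3 months, 1.10, 1.26 and 1.25 at 9 months, 1.49, 1.08 and 1.14 at 12 months, 0.98, 1.02 and 1.01 at 18 months, and 1.43, 1.55, 1.49 and 1.51 at 24 months. The 24-month arrays lay above all arrays of 3, 9 and 18 months and overlapped only replicate 2 at 12 months, the array least like the others of its age. At 24 months Hsf1 was 1.31-fold higher than at 3 months (difference 0.39, SE 0.11, adjusted p = 0.0342). Against 18 months it was 1.41-fold higher (difference 0.50, SE 0.11, adjusted p = 0.00502). The 3 arrays of 18 months were the lowest group, 0.11 under 3 months (adjusted p = 0.552, 95% confidence interval −0.36 to 0.15). The difference of 24 against 3 months lost its call without any 1 of the 3-month arrays, without replicate 3 at 18 months or without replicates 1 or 2 at 24 months, with adjusted p up to 0.123. With scan session as a block, the difference from 18 months was 0.11 (adjusted p = 0.665). Only the 12-month arrays inform this term, through replicate 2, alone in the first session, set against replicates 3 and 4.

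The constitutive HSP70 of the cytosol, Hspa8, had signals of 5.67, 5.71 and 5.50 at 3 months, 5.53, 5.45 and 5.86 at 9 months, 6.22, 5.97 and 6.12 at 12 months, 6.20, 6.61 and 6.58 at 18 months, and 6.30, 6.51, 5.90 and 5.98 at 24 months. All 18-month and 24-month arrays lay above all arrays of 3 and 9 months. Hspa8 was 1.78-fold higher at 18 than at 3 months (difference 0.84, SE 0.18, adjusted p = 0.00468) and 1.80-fold higher at 18 than at 9 months (difference 0.85, adjusted p = 0.00629). At 24 months it was 1.46-fold higher than at 3 months (difference 0.55, SE 0.17, adjusted p = 0.0455) and 1.48-fold higher than at 9 months (adjusted p = 0.0342). The 24-month call against 3 months ended without any 1 of 11 arrays, at adjusted p up to 0.165. These were all 3 at 3 months, replicates 1 and 2 at 9 months, replicates 3 and 4 at 12 and at 18 months, and replicates 1 and 2 at 24 months. The call of 18 against 3 months remained without any single array.

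Hspa1b encodes the inducible HSP70, which unstressed cells hold at a low level. Its signal was −1.76, −2.14 and −1.96 at 3 months, −3.19, −3.68 and −3.13 at 9 months, −3.01, −3.53 and −3.29 at 12 months, −3.24, −2.06 and −1.32 at 18 months, and −1.95, −0.97, −1.71 and −3.80 at 24 months. The 9-month and 12-month arrays lay under all those of 3 months, while the 18-month and 24-month arrays spread over both ranges. No difference between ages was called, and at 24 against 3 months the difference of −0.16 had a 95% confidence interval of −1.32 to 0.998 (adjusted p = 0.892). Replicate 4 at 24 months was the 1 array of 16 where the probe was not well above background. Hspa1b and Hspa1a are near-identical copies, and whether the probe tells them apart was not tested. Hspa1a, the other inducible copy, was well above background on 10 of 16 arrays and was not called at any age (adjusted p = 0.689).

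Dnajb1 encodes an inducible J-domain partner of HSP70. It had 2.27, 2.30 and 2.29 at 3 months, 2.50, 2.75 and 2.77 at 9 months, 2.51, 2.17 and 2.13 at 12 months, 2.38, 2.65 and 2.88 at 18 months, and 2.90, 3.13, 2.45 and 2.87 at 24 months. Every 24-month array lay above the 3 arrays of 3 months, which differed little among themselves, whereas 12 and 24 months overlapped through the highest array of 12 months. Dnajb1 was 1.47-fold higher at 24 than at 3 months (difference 0.55, SE 0.17, adjusted p = 0.0439) and 1.48-fold higher at 24 than at 12 months (difference 0.57, adjusted p = 0.0364). The call against 3 months ended without any 1 of 11 arrays, at adjusted p up to 0.131. These were every array of 3 and of 9 months, replicate 3 at 12 months, replicate 3 at 18 months, and replicates 1, 2 and 4 at 24 months. Among arrays of the first scan session alone its adjusted p was 0.0511.

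Hsph1 encodes an HSP110 protein, a nucleotide exchange factor for HSP70. Its signal was −0.90, −0.77 and −0.98 at 3 months, −1.15, −1.12 and −0.44 at 9 months, −0.74, −0.98 and −0.47 at 12 months, −0.05, −0.02 and −0.10 at 18 months, and −0.76, −0.04, −1.24 and −0.54 at 24 months. The 18-month arrays lay within a narrow range above every array of 3, 9 and 12 months, and the 24-month arrays were the most spread. Hsph1 was 1.77-fold higher at 18 than at 3 months (difference 0.82, SE 0.26, adjusted p = 0.0347) and 1.80-fold higher at 18 than at 9 months (difference 0.85, adjusted p = 0.0367). At 24 against 3 months the difference was 0.24 (adjusted p = 0.585, 95% confidence interval −0.28 to 0.76). Leaving out any 1 array of 3 or of 18 months ended the call of 18 against 3 months, at adjusted p up to 0.102.

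The inducible cytosolic HSP90, Hsp90aa1, had 5.91, 5.84 and 5.87 at 3 months, 5.91, 5.70 and 6.25 at 9 months, 5.91, 6.06 and 6.03 at 12 months, 6.24, 6.36 and 6.80 at 18 months, and 6.35, 6.64, 6.12 and 6.27 at 24 months. Both older ages lay above all arrays of 3 and of 12 months. Hsp90aa1 was 1.51-fold higher at 18 than at 3 months (difference 0.59, SE 0.18, adjusted p = 0.0284). At 24 months it was 0.47 above 3 months and did not pass the threshold (SE 0.17, adjusted p = 0.0801). The call of 18 against 3 months ended without any 1 array of 3 months or without replicates 3 or 4 at 18 months, at adjusted p up to 0.13.

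Chordc1 encodes a zinc-binding partner of HSP90. Its signal was 3.48, 3.48 and 3.32 at 3 months, 3.58, 3.48 and 3.90 at 9 months, 3.55, 3.41 and 3.43 at 12 months, 3.87, 3.94 and 4.04 at 18 months, and 4.08, 4.26, 3.72 and 4.12 at 24 months. The 18-month and 24-month arrays lay above all arrays of 3 and 12 months, and overlapped those of 9 months. Chordc1 was 1.54-fold higher at 24 than at 3 months (difference 0.62, SE 0.14, adjusted p = 0.0102), 1.50-fold higher at 24 than at 12 months (difference 0.58, adjusted p = 0.0146) and 1.44-fold higher at 18 than at 3 months (difference 0.53, adjusted p = 0.0218). Without replicate 3 at 3 months, the adjusted p of 24 against 3 months was 0.0549. The call of 18 against 3 months ended without any 1 array of 3 months or without replicates 3 or 4 at 18 months, at adjusted p up to 0.0842.

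Hspb8 encodes a small heat shock protein that works with the co-chaperone Bag3 in delivering misfolded protein to autophagy. It had 1.14, 1.17 and 1.10 at 3 months, 1.43, 1.86 and 1.81 at 9 months, 1.46, 1.81 and 1.37 at 12 months, 1.76, 1.75 and 2.03 at 18 months, and 2.19, 2.17, 1.56 and 1.82 at 24 months. All 13 arrays of the later ages lay above the 3 arrays of 3 months. Hspb8 was 1.74-fold higher at 24 than at 3 months (difference 0.80, SE 0.17, adjusted p = 0.0078), a call that remained without any single array. At 18 months it was 1.64-fold higher than at 3 months (difference 0.71, SE 0.19, adjusted p = 0.0142), and without replicate 4 at 18 months that difference was 0.62 (adjusted p = 0.0635). At 9 months it was 0.57 above 3 months and did not pass (adjusted p = 0.102). With slide as a random block that difference was 0.69 and was called in limma (adjusted p = 0.0269), where 9.56% of all genes were. It was also called without the 3 arrays least like the others of their age (0.0266), where 14.8% of all genes were. After normexp background correction the adjusted p was 0.807.

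Hspb1 encodes the small heat shock protein HSP27, which binds unfolded clients and actin. Its signal was 2.19, 2.22 and 2.52 at 3 months, 1.99, 2.28 and 2.15 at 9 months, 0.99, 2.50 and 1.44 at 12 months, 1.85, 1.92 and 2.51 at 18 months, and 3.79, 2.64, 2.62 and 2.29 at 24 months. The highest array was replicate 1 at 24 months and the lowest was replicate 2 at 12 months, and the arrays of 24 and 12 months overlapped. The one call was at 24 against 12 months, where Hspb1 was 2.28-fold higher (difference 1.19, SE 0.36, adjusted p = 0.0405). At 24 against 3 months the difference was 0.52 with a 95% confidence interval of −0.25 to 1.30 (adjusted p = 0.389).

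Hspd1 encodes the HSP60 chaperonin of the mitochondrial matrix. Its signal was 6.50, 6.43 and 6.46 at 3 months, 6.50, 6.45 and 6.61 at 9 months, 6.41, 6.53 and 6.71 at 12 months, 6.68, 6.72 and 6.83 at 18 months, and 6.98, 6.98, 6.32 and 6.86 at 24 months. At 24 months 3 arrays were the highest of all and replicate 3 was the lowest of all 16. The difference of 24 against 3 months was 0.32 (SE 0.15, adjusted p = 0.197), and no pair of ages was called. Hspe1, which encodes the lid of the HSP60 chamber, averaged 7.27 ± 0.31 at 24 months and 7.19 ± 0.08 at 3 months (SD, n = 4 and 3) and was not called at any age (adjusted p = 0.882).

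Over the pairs of ages, 24 against 3 months called 5 of the 10 genes, where 13.3% of all genes were called, and all 5 were higher at 24 months, as were 4.23% of all genes. They were Hsf1, Hspa8, Dnajb1, Hspb8 and Chordc1. With the mean of all kept probes in place of the brightest, Hspa8 was 0.49 higher and not called (adjusted p = 0.134). The median difference of the 10 genes was 0.50, against −0.04 over all genes tested. The 10 genes were chosen with earlier results of these data known, so these counts and medians are a description and not a test. With slide as a random block the differences of the 5 genes were 0.41 to 0.82 and none was called (adjusted p 0.173 to 0.544). The share of all genes called was then 1.44%. After normexp background correction the 5 differences were 0.16 to 0.68 and none was called (adjusted p 0.235 to 0.646). Of all genes 2.27% were then called, and the median of all genes lay at 0.12. Among arrays of the first scan session 3 of the 5 were called, where 12.9% of all genes were. Without the 3 arrays least like the others of their age 7 of the 10 were called, where 23.8% of all genes were.

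At 18 against 3 months another set of 5 was called, Hspa8, Hsph1, Hsp90aa1, Hspb8 and Chordc1, all higher at 18 months, against 23.2% of all genes called and 11.3% called higher. This comparison and that of 24 against 3 months share the 3-month arrays. Side by side, the differences from 3 months were 0.82 at 18 and 0.24 at 24 months for Hsph1, 0.84 and 0.55 for Hspa8, 0.59 and 0.47 for Hsp90aa1, 0.53 and 0.62 for Chordc1, and 0.71 and 0.80 for Hspb8. For Hsf1 they were −0.11 and 0.39. With scan session as a block none of the 5 was called (adjusted p 0.058 to 0.366), where 12.1% of all genes were. That term rests on replicate 2 at 12 months set against replicates 3 and 4. None of the 5 was called with slide as a random block (0.312 to 0.708) or after normexp background correction (0.104 to 0.623). Of all genes 1.23% and 6.35% were called in these fits.

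At 24 against 18 months Hsf1 alone of the 10 genes was called, against 25.8% of all genes called and 10.8% called higher. Hsph1 was 0.59 lower at 24 than at 18 months and did not pass (adjusted p = 0.0927). At 18 against 9 months Hspa8 and Hsph1 were called, both higher, against 18.4% called and 8.9% called higher of all genes. At 24 against 9 months Hspa8 was called, against 16.8% and 5.98%. At 24 against 12 months Dnajb1, Hspb1 and Chordc1 were called higher, against 15% and 4.11%.

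The steps among the younger ages called 0 of the 10 genes. The background was 5.13% of genes for 9 against 3 months, 6.27% for 12 against 9 months, 10.7% for 12 against 3 months and 1.38% for 18 against 12 months. In limma's fit 3, 2, 3 and 3 of the 10 genes had an unadjusted p under 0.05 in these 4 comparisons taken in the order 9 against 3, 12 against 9, 12 against 3 and 18 against 12 months, beside 18.1%, 22.9%, 26.7% and 18.3% of all genes, a share near the background. When the age means of a gene were ordered from low to high, no 2 neighbouring ages were called different for any of the 10 genes, and the smallest adjusted p was that of Hsph1, 0.0927.

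**Figure D3:**
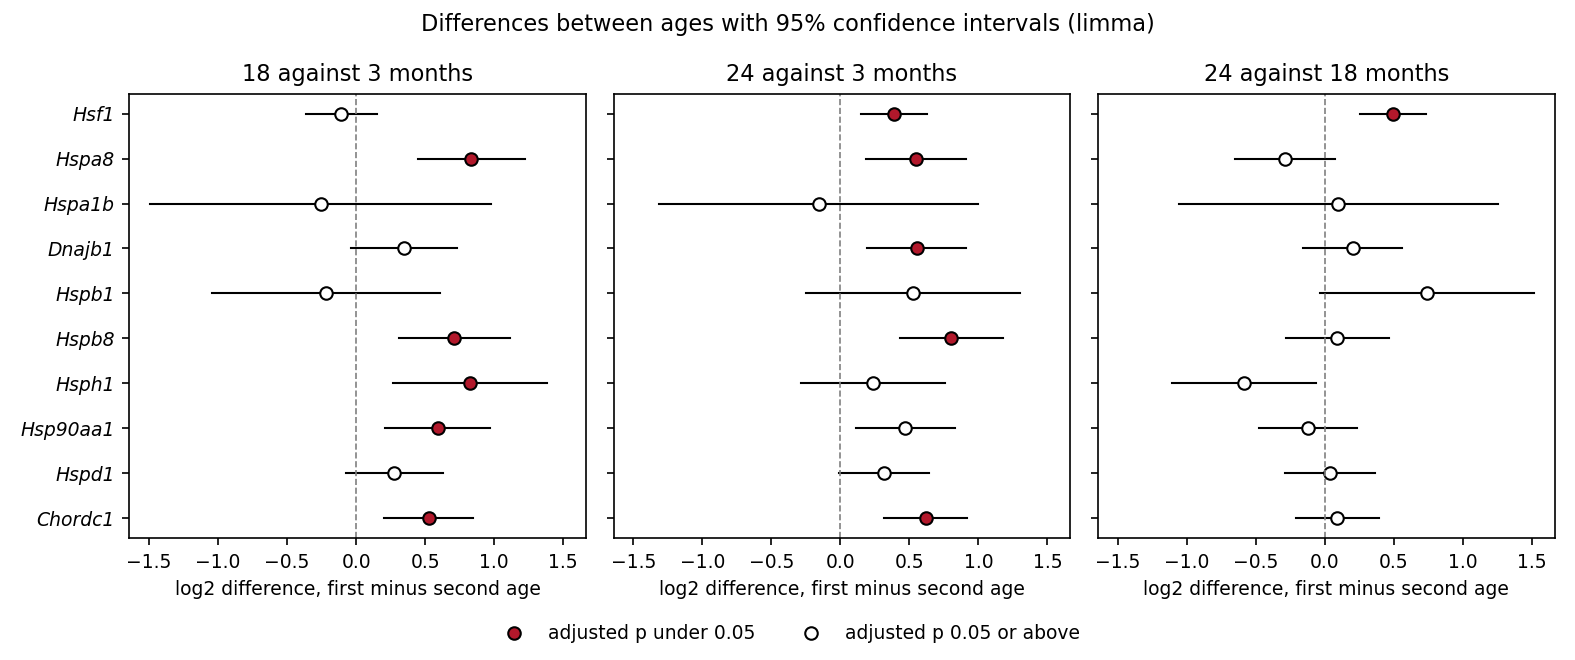
Difference in log2 signal between ages for the 10 genes (horizontal axes, older minus younger), with 95% confidence intervals from limma and called genes marked. At 24 against 3 months the called genes lie between 0.39 for Hsf1 and 0.80 for Hspb8, while the interval of Hspa1b runs from −1.32 to 0.998.

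Several genes had more than 1 probe, which gave a second reading on the same arrays. In the fit over all 25697 probes, 7 of the 21 probes of these genes were called at 24 against 3 months, against 12.3% of all probes, and 10 were called at 18 against 3 months, against 21.9%. All of these were higher at the older age. For the 5 genes with several kept probes, the probes had the same sign in 5 of 5 genes at 18 against 3 months and in 4 of 5 at 24 against 3 months. The exception was Hspa8. Of its 4 kept probes, 3 were 0.55, 0.74 and 0.87 higher at 24 than at 3 months and were called.

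The remaining Hspa8 probe, A_44_P396546, had −1.20, −1.50 and −1.50 at 3 months, −2.05, −1.31 and −1.74 at 9 months, −2.22, −0.71 and −0.69 at 12 months, −0.13, 0.20 and 0.56 at 18 months, and −1.05, −1.24, −2.25 and −1.79 at 24 months. Its 18-month arrays lay above all others, and those of 24 and 3 months overlapped. It was 1.61 higher at 18 than at 3 months (adjusted p = 0.0106), 1.79 lower at 24 than at 18 months (adjusted p = 0.00298) and 0.18 lower at 24 than at 3 months (adjusted p = 0.812). The Hspa8 probe A_44_P452492, which represents the gene above, differed by −0.29 between 24 and 18 months and was not called.

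A like disagreement was seen for Hsp90aa1. Its probe A_44_P114308 had 0.69, 0.46 and 0.25 at 3 months, 0.43, 0.53 and 0.99 at 9 months, 0.05, 0.66 and 1.25 at 12 months, 1.27, 1.78 and 2.10 at 18 months, and 0.92, 1.16, 0.61 and 0.67 at 24 months. The 18-month arrays were the highest on this probe. It was 1.25 higher at 18 than at 3 months (adjusted p = 0.00766) and 0.88 lower at 24 than at 18 months (adjusted p = 0.0296). The remaining Hsp90aa1 probes were 0.62 and 0.53 higher at 18 than at 3 months and were not called (adjusted p = 0.166 and 0.132), so 2 of its 4 probes were. At 24 against 18 months 3 of the 21 probes were called, 1 higher and 2 lower, against 23.9% of all probes. The higher one was that of Hsf1.

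The second probe of Dnajb1 was 0.92 lower at 12 than at 9 months (adjusted p = 0.0408), the 1 probe of 21 called there, against 6.21% of all probes. At 24 against 3 months it was 0.57 higher and not called (adjusted p = 0.125). The second probe of Chordc1 was 0.80 higher at 18 than at 3 months (adjusted p = 0.0231), and at 24 against 3 months it did not pass (adjusted p = 0.052). The 4 probes of Hspd1 were 0.28 to 0.78 higher at 18 than at 3 months, and none of the 4 was called.

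**Figure D4:**
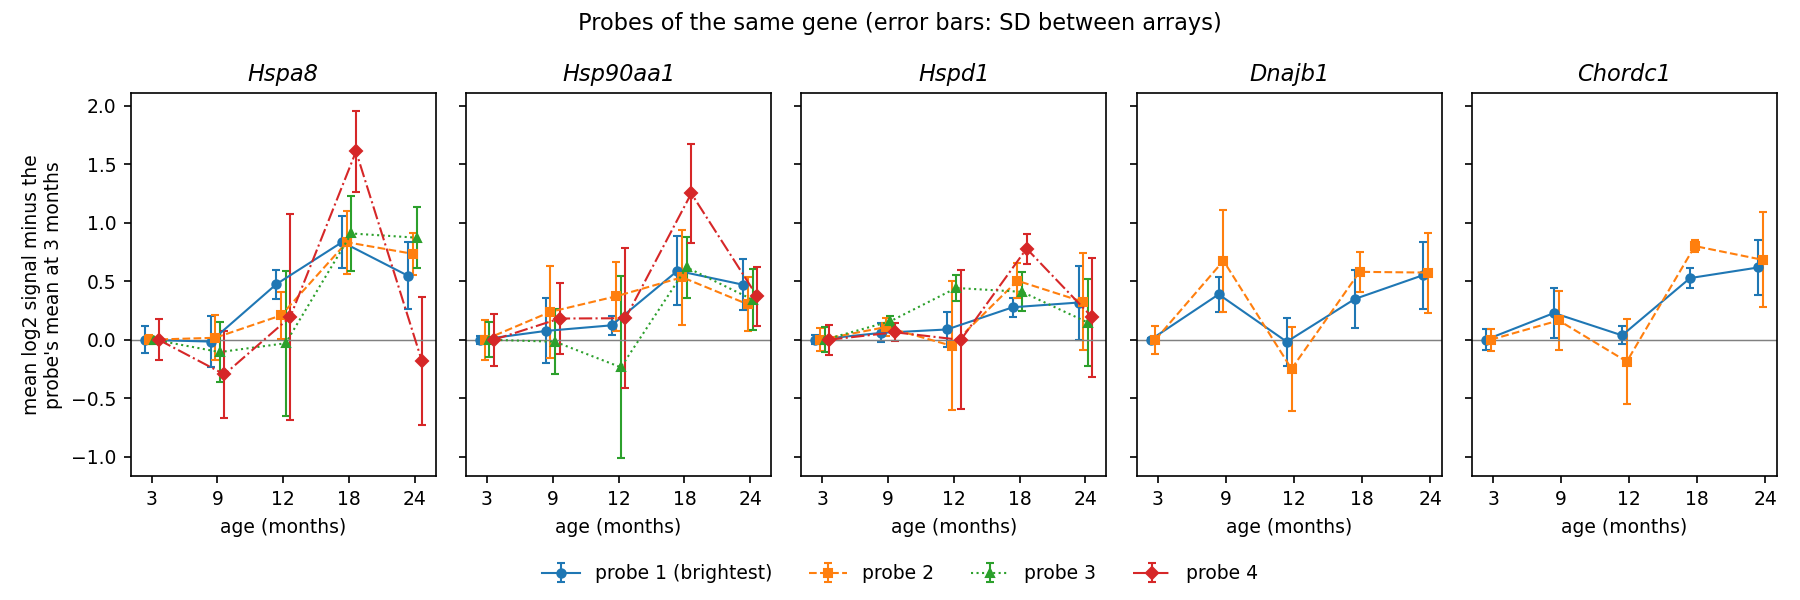
Mean log2 signal of each probe minus its own mean at 3 months (vertical axes) against age in months for genes with several kept probes, with SD between arrays as error bars. One Hspa8 probe is 1.61 higher at 18 months and 0.18 lower at 24 months than at 3 months, apart from the other 3.

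A wider list of 58 other heat shock factors, chaperones and co-chaperones had 54 genes tested, and 7 of them were called at any age, against the same 37.4% of all genes. At 24 against 3 months 3 of the 54 were higher and 2 lower, where 4.23% of all genes were called higher and 9.07% lower. At 18 against 3 months 4 were higher and 0 lower, where 11.3% of all genes were called higher and 11.9% lower. The list's median difference was 0.13 at 24 and 0.09 at 18 against 3 months, beside −0.04 and −0.05 over all genes.

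Among those higher at 18 months, Hspb6, a small heat shock protein, averaged −0.68 ± 0.16 at 18 months and −1.59 ± 0.05 at 3 months (SD, n = 3 each; adjusted p = 0.00324). Bag3, the partner of Hspb8, averaged 4.32 ± 0.07 at 18 months and 3.55 ± 0.09 at 3 months (adjusted p = 0.0154), and it was already 0.78 higher at 9 than at 3 months (adjusted p = 0.0404). Hspa4, an HSP110 relative of Hsph1, averaged 3.24 ± 0.05 at 18 months and 2.71 ± 0.08 at 3 months (adjusted p = 0.00491). Dnaja1, a J-domain protein, averaged 6.46 ± 0.16 at 18 months and 5.87 ± 0.04 at 3 months (adjusted p = 0.049), although its F test was not called (0.148). Of these 4, Hspb6 was called at 24 months as well, 0.62 above 3 months (adjusted p = 0.0279).

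At 24 against 3 months Hsf4, a heat shock factor known for its role in the lens, averaged 0.03 ± 0.21 at 24 months and −0.83 ± 0.10 at 3 months (SD, n = 4 and 3; adjusted p = 0.0103). Hspa14, an HSP70 relative that binds ribosomes, averaged 3.07 ± 0.25 at 24 months and 2.61 ± 0.13 at 3 months (adjusted p = 0.0415). Fkbp5, a co-chaperone of HSP90 that glucocorticoids induce, averaged 1.73 ± 0.35 at 24 months and 2.42 ± 0.05 at 3 months (adjusted p = 0.0435). Its larger differences were at younger ages, 1.54 lower at 9 than at 3 months (difference −1.54, adjusted p = 0.00182) and 1.25 higher at 12 than at 9 months (adjusted p = 0.00766). The other fall was Hspb3, a small heat shock protein of muscle, at −2.19, −3.21, −6.74 and −1.47 on the 24-month arrays and −0.04, −0.12 and −0.22 on the 3-month arrays (adjusted p = 0.022), with replicate 3 at 24 months not well above background. Hsf2, a second heat shock factor, was not called at any age (adjusted p = 0.463). Nor were Hsp90ab1, the constitutive HSP90 (0.392), and Stip1, which links HSP70 to HSP90 (0.214).

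**Figure D5:**
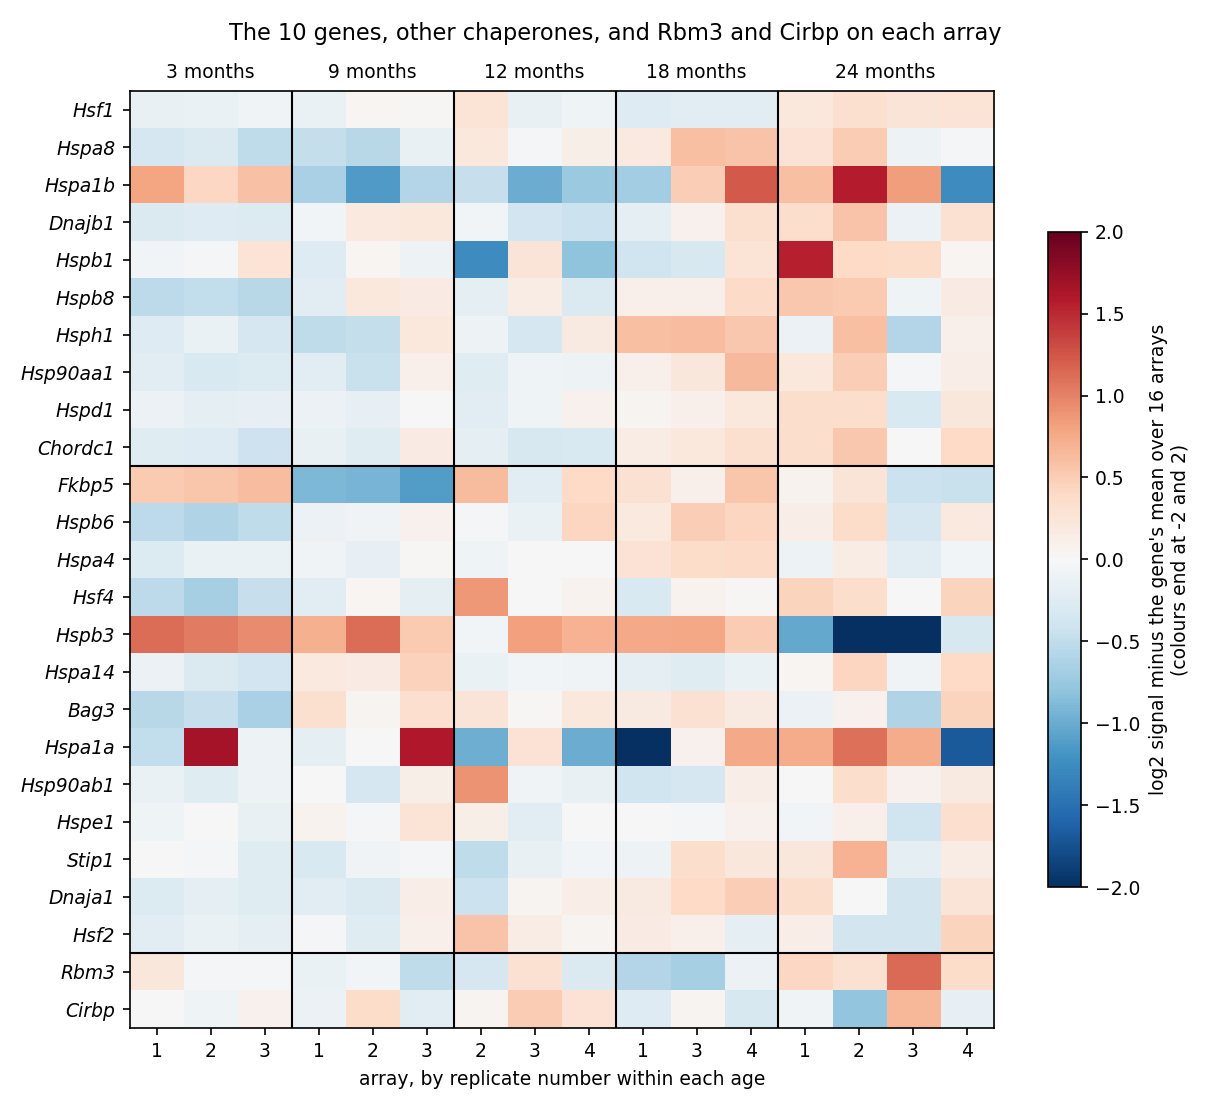
Log2 signal minus the mean of each gene over 16 arrays, with 1 column per array ordered by age and 1 row per gene, for the 10 genes, other chaperones, and Rbm3 and Cirbp. Most rows of the 10 genes are above their mean at 18 and 24 months, and replicate 3 at 24 months is the lowest of its age for 7 of the 10, all but Hsf1, Hspa1b and Hspb1.

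Rbm3 and Cirbp encode RNA-binding proteins that rise when cells are cooled and so stand opposite to the heat shock genes. Rbm3 had −0.14, −0.23, 0.58 and −0.18 at 24 months and −1.13, −1.21 and −0.67 at 18 months, groups that did not overlap. It was 2.02-fold higher at 24 than at 18 months (difference 1.01, SE 0.23, adjusted p = 0.00468). Cirbp was not called at any age (adjusted p = 0.613).

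Clock genes moved with age on the same arrays. Of 16 listed, 14 were tested and all 14 were called at any age, against 37.4% of all genes. Dbp, an output gene of the clock with a strong daily rhythm in liver, averaged −0.59 ± 0.40 in livers of 3 months and −0.36 ± 0.22 in those of 9 months (SD, n = 3 each). It averaged 5.41 ± 0.11 in livers of 12 months, 4.75 ± 0.55 in those of 18 months and 4.11 ± 1.02 in those of 24 months (SD, n = 3, 3 and 4). Per2, a clock repressor, was 3.21 higher at 24 than at 3 months (adjusted p = 0.000388). The part of these shifts in the chaperone differences was not tested.

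The tissue label was checked against cell type markers. All 14 hepatocyte markers were above background on all 16 arrays, with a summed signal of 5100 to 7760 at 24 months, 6910 to 7390 at 18 months and 6930 to 7770 at 3 months, in multiples of the 75th percentile. The summed signal of 10 T and NK cell markers was 11 to 27 at 24 months, 3.63 to 4.46 at 18 months and 16 to 19.2 at 3 months. For 6 neutrophil markers it was 1.69 to 51.3 at 24 months, 1.62 to 3.99 at 18 months and 15.8 to 18.5 at 3 months, and for 9 stellate cell and fibroblast markers it was 23.6 to 26.2, 16.6 to 19.8 and 41.5 to 47.3 at the same ages. The 10 macrophage markers summed to 312 to 427 at 24 months, 228 to 282 at 18 months and 320 to 333 at 3 months. The 5 cholangiocyte markers tested summed to 2.99 to 4.42 at 24 months, 1.71 to 2.01 at 18 months and 2.16 to 2.63 at 3 months. At 24 against 18 months 4 of these 5, 8 of the 10 T and NK cell markers and 7 of the 10 macrophage markers were called higher, against 10.8% of all genes. The 8 endothelial markers summed to 62.1 to 76.2 at 24 months, 65.9 to 77.6 at 18 months and 65.4 to 75.9 at 3 months, and the 4 erythroid markers tested summed to 6.38 to 31.6, 7.44 to 9.09 and 9.53 to 10.9 at the same ages. Replicate 3 at 24 months was the lowest of its age for 7 of the chaperone genes. Its mean hepatocyte signal was the lowest of the 16 arrays (−0.47 from the mean of all). Its macrophage (0.86), erythroid (1.60), T and NK cell (1.71), endothelial (0.54) and B and plasma cell (0.95, 2 markers) means were the highest of all. Its neutrophil (1.89), cholangiocyte (0.99) and stellate cell and fibroblast (0.15) means were the highest of its age. Of 6 striated muscle markers none passed the filter. In bulk liver, fewer cells of a type and less RNA per cell cannot be told apart, and the part of these cell types in the chaperone differences was not tested.

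For genes called by the F test, the 3 genes of most similar profile were taken by the root mean square difference of centred log2 signals over the 16 arrays, among 9374 genes measured on all of them. For Hsp90aa1 the nearest was Chordc1 (0.15), ahead of Scoc and Ppp3ca, and for Dnajb1 it was Chordc1 as well (0.16), ahead of Diablo and Endog. Chordc1 in turn had Praf2 first (0.15), then Hsp90aa1 and Dnajb1. None of the nearest 3 of Hsf1 and Hspa8 was a chaperone of the lists. They were Rexo1, Fgfr1op2 and Ylpm1 for Hsf1 (0.09 to 0.10), and Mtap, Kgd4 and Msl3 for Hspa8 (0.16 to 0.18).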

How the data were processed

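Spots were read out with Agilent Feature Extraction 10.7.3.1, per the file headers, and its processed, mean and local background signals are deposited as intensity values that are not yet scaled between arrays. Spot flags are also deposited, as columns of another kind (other). The authors deposited a series table of log2 values as well, whose normalization is not given in the sources used here, and which served as an alternative. According to the labels' protocols a microRNA kit was used for labelling, although the array measures mRNA. This was not resolved.

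Log2 processed signals were centred on each array's 75th percentile. Outlier spots were dropped before averaging within probes, which left 43 missing values. Probes passed the filter when well above background on every array of 1 or more ages (25697 of 41012, and 19891 on every one of the 16 arrays). The brightest passing probe stood for its gene. Accessions gave names to 18028 probes, while 20887 stayed under the name in the array files and the rest under their own probe name. Each such name was counted as a gene. Of the 21488 tested, 11374 had a gene symbol, and shares of all genes include those without.

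Age means were compared with limma 3.58.1 (R 4.3.3, data.table version 1.17.8) for all pairs of ages and by an F test. Tests were two-sided, with Benjamini-Hochberg adjustment over all 21488 genes, and the procedure was tested on simulated data. Groups followed the stated age. Replicate numbers were not taken to pair the samples. Of 25 pairs of same-numbered arrays, 2 had a correlation of deviations above 0.1 (range −0.3 to 0.119). Pairs with different numbers were not set beside these, so this was not a test of pairing. The members and the gene lists were chosen with earlier results of these data known. The named genes are all members, the listed chaperones called at any age with the smallest adjusted p, a few set in advance (Hspa1a, Hsp90ab1, Hspe1, Bag3, Stip1, Dnaja1, Hsf2, Rbm3, Cirbp, Dbp and Per2), and the 3 nearest profiles, which for Hspb8 are not reported here. Promoter sequences are those of RefSeq on GRCr8, a later build than the rn4 of the headers. Alternatives were other normalizations, background corrections, filters and probe rules, slide, scan session or replicate number as a block, and leaving out arrays. Figures were drawn with matplotlib 3.10.9 in Python 3.11.15.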

Additional observations from a re-analysis of the deposited data

How the results depend on the processing

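Counts are of called genes among the 10, and pairs of ages are in months, older first. Counts near the main count are left out. Where no share of all genes called is given beside a count or below, it is not reported here. The main counts were 6 by the F test, 5 at 24 against 3, 5 at 18 against 3, 1 at 24 against 18 and 0 at the steps among younger ages, and 7 of the other chaperones by the F test. After normexp background correction the counts were 0 by the F test, 0 at 24 against 3, 0 at 24 against 18, 0 at 18 against 3 and 2 other chaperones by the F test, and the sign turned for Hspa1b (0.24) at 24 against 3, Hspd1 (−0.0175) at 9 against 3, Hsf1 (−0.0344), Hsp90aa1 (−0.0057) and Hspd1 (−0.0251) at 12 against 9 and Dnajb1 (−0.0765), Hspb8 (−0.14), Hspd1 (−0.19) and Chordc1 (−0.13) at 24 against 18. Without the filter on dim probes the counts were 3 by the F test, 2 at 24 against 3 and 3 at 18 against 3. By the F test 7503 genes were then called in all, among a larger set of genes tested. With slide as a random block the counts were 0 by the F test, 0 at 24 against 3, 0 at 24 against 18 and 0 at 18 against 3. They were 1 at 9 against 3, Hspb8 (adjusted p = 0.0269 in limma), and 1 at 12 against 9, Hspa8 (0.0462). Of all genes 9.56% and 22.5% were called in these 2 comparisons. With this block the sign turned for Hspb1 (0.0006) and Hsp90aa1 (−0.0935) at 9 against 3, Hsp90aa1 (−0.0736) and Hspd1 (−0.0805) at 12 against 9 and Hspa1b (−0.0681) and Hspd1 (−0.0099) at 24 against 18. With a replicate block, although the numbers were not taken to pair the samples, the counts were 2 by the F test, 2 at 24 against 3 and 2 at 18 against 3. Of all genes 25.2%, 9.88% and 14.4% were called in the same order. Of the other chaperones 2 were called by the F test, and the sign turned for Hsp90aa1 (−0.0119) at 12 against 9. With quantile normalization the counts were 3 at 24 against 3, and the sign turned for Hsp90aa1 (−0.0354) and Hspd1 (−0.0704) at 9 against 3 and Hspd1 (−0.0166) at 24 against 18. In the table of values deposited by the authors the sign turned for Hspa1b (0.0071) at 24 against 3, Hsp90aa1 (−0.0382) and Hspd1 (−0.0684) at 9 against 3 and Hspd1 (−0.0119) at 24 against 18. With the fit limited to the arrays of the compared ages the counts were 2 at 24 against 3 and 3 at 9 against 3. Within the first scan session the counts were 3 at 24 against 3, and the sign turned for Hsp90aa1 (−0.0445) and Hspd1 (−0.11) at 12 against 9. Without the 3 arrays least like the others of their age the counts were 1 at 9 against 3, 1 at 12 against 9 and 2 at 24 against 18. Of the other chaperones 17 were called by the F test. That test also called Hspa1b (adjusted p = 0.0157), Hsph1 (0.0361) and Hspd1 (0.00756) besides the main 6, and not Hspb1 (0.0869). At 18 against 3 Hspd1 was called besides the main 5 (adjusted p = 0.0271 in limma), where 39.7% of all genes were. Without these arrays the sign turned for Hspa1b (0.49) at 24 against 3, Hsf1 (−0.0958) and Hspa1b (−0.0744) at 12 against 9 and Hsp90aa1 (0.0297) at 24 against 18. Within the first scan day the counts were 3 at 9 against 3 and 1 at 12 against 9, and the sign turned for Hsp90aa1 (−0.0445) and Hspd1 (−0.11) at 12 against 9. With the mean of the probes of a gene the sign turned for Hsp90aa1 (−0.0088) at 12 against 9 and Hspd1 (−0.25) and Chordc1 (−0.0138) at 24 against 18. With scan session as a block the counts were 0 at 24 against 18, 0 at 18 against 3 and 15 other chaperones by the F test, and the sign turned for Hsp90aa1 (−0.0445) and Hspd1 (−0.11) at 12 against 9, Hspa1b (−0.30), Dnajb1 (−0.15), Hsp90aa1 (0.019) and Chordc1 (−0.0433) at 24 against 18 and Hsf1 (0.28) and Hspa1b (0.14) at 18 against 3. Under the processing of the report, none of these genes was called in the comparison where its sign turned, and the causes were not tested. Leaving out 1 array at a time turned signs for Hspa1b (−0.54 to 0.41) at 24 against 3, Hspa8 (−0.14 to 0.0647), Hsph1 (−0.26 to 0.10) and Hsp90aa1 (−0.0727 to 0.20) at 9 against 3, Hsf1 (−0.0958 to 0.11), Hspa1b (−0.12 to 0.19), Hsp90aa1 (−0.0793 to 0.20) and Hspd1 (−0.0518 to 0.10) at 12 against 9, Hspa1b (−0.42 to 0.66), Hsp90aa1 (−0.23 to 0.0457) and Hspd1 (−0.0255 to 0.20) at 24 against 18 and Hspa1b (−0.70 to 0.26) at 18 against 3. Without 1 array the counts were 3 to 8 by the F test, 1 to 6 at 24 against 3, 1 to 5 at 18 against 3 and 1 to 2 at 24 against 18. Over all genes the numbers called were then 6296 to 9816, 1606 to 3814, 3253 to 6468 and 4038 to 6909 in the same order. The counts were 0 to 0 at 9 against 3, at 12 against 9 and at 18 against 12, where 483 to 1624, 506 to 2227 and 94 to 784 of all genes were called. Of the other chaperones 3 to 10 were called by the F test.

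Over all genes, 2860 were called at 24 against 3. After normexp background correction the number was 487, and with slide as a random block 310 (consensus correlation 0.687). At 18 against 3 the numbers were 4995, 1364 and 264 in the same order. By the F test 37.4% were called, against 7.53% after normexp background correction and 22.5% with slide as a random block. Without the 3 arrays least like the others of their age, the shares called were 14.8% at 9 against 3 and 18.8% at 12 against 9. At 24 against 18 the share was 35.5%, against 25.8% in the main fit. In that comparison it was 4.54% after normexp background correction, 4.53% with slide as a random block and 13.1% with scan session as a block. Normexp background correction moved the median difference of all genes to 0.12 at 24 against 3, −0.12 at 18 against 12 and 0.13 at 24 against 18. It moved the share of calls that were higher from 37.7% to 23.5% at 9 against 3, from 50.6% to 38.6% at 12 against 9 and from 77.1% to 100% at 18 against 12. Scan session as a block leaves 24 against 3 as it was, since all arrays of both ages were scanned in the first session, and tests nothing there. Where ages of both sessions are compared, it rests on replicate 2 at 12 months set against replicates 3 and 4. With the mean of the probes of a gene, Hspa8 at 24 against 3 (0.49, adjusted p = 0.134 in limma) and Hsp90aa1 by the F test (adjusted p = 0.0612) were no longer called, and Hsp90aa1 was not called by the F test with scan session as a block (0.0699). The pairs 18 against 9, 24 against 9 and 24 against 12 were not recomputed under other settings. Slide and age cannot be told apart at 24 or 18 against 3, and signal near background limits the reading of Hspa1b.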

Other observations

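Chaperones of the endoplasmic reticulum answer, for the most part, to a separate stress pathway. Of 15 tested, 4 were lower and 0 higher at 24 against 3 months, where 9.07% of all genes were lower and 4.23% higher. At 18 against 3 months 5 were lower and 0 higher, where 11.9% of all genes were lower and 11.3% higher. Their median difference was −0.31 and −0.47 in these comparisons, beside −0.04 and −0.05 over all genes, and whether it differed from that of the cytosolic chaperones was not tested. Of 16 early response genes, 4 were lower and 0 higher at 24 against 3 months, beside the same 9.07% and 4.23%. Already at 9 against 3 months 6 of them were lower and 1 higher, where 5.13% of all genes were called. From 9 to 12 months 5 of them were higher and 1 lower, where 6.27% of all genes were called. Of 8 glucocorticoid targets, 7 were called at any age, against 37.4% of all genes. At 9 against 3 months 4 were lower and 0 higher, where 5.13% of all genes were called. At 12 against 9 months 5 were higher and 1, Sgk1, was lower (difference −1.19, adjusted p = 0.0329 in limma), where 6.27% of all genes were called.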
